A study of Mus musculus with 17 samples.

Results

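The 9 transcription factors followed here build or shape the macrophage lineage, and were read in 17 mouse macrophage libraries: Spi1, Cebpa, Runx1, Irf8, Cebpb, Klf4, Maf, Mef2c and Mitf. These 9 genes were taken by name from a table of 37620 gene IDs, and all 9 were found and passed the filter for testing. Lineage factors of this kind bind the enhancers of myeloid genes, often side by side. PU.1, encoded by Spi1, opens much of the macrophage enhancer repertoire, C/EBP and RUNX proteins act beside it in progenitors, and IRF, KLF, MAF, MEF2 and MiT family factors then shape monocytes, mature macrophages and osteoclasts. Spi1 and Irf8 were present in every library and led the set, with medians of 546 and 216 TPM (the deposited unit of transcript abundance, corrected for transcript length and with an equal total in every library). The other 7 genes were each under TPM 1 in at least 1 library. None of the 9 passed the test in any comparison of treatment or genotype.

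The libraries were made by SMART-seq2, which amplifies full-length cDNA, from macrophages of C57BL/6J (H-2b) mice, grown out of bone marrow in 50 ng/ml M-CSF, the growth factor of macrophages, over 7 days. The treatment was 5 ng/ml of the cytokine TGF-β1 during another 5 days, and the study concerns macrophages that turn towards myofibroblasts under this cytokine, with and without its nuclear effector Smad3. Smad3 wild type is the label of 5 control and 4 TGF-β1 libraries, and Smad3 knockout that of 5 control and 3 TGF-β1 libraries. The treatment text is identical on all labels, so it does not tell if controls were kept for those 5 further days. Nor do the labels say which library came from the sort for F4/80 and α-smooth muscle actin named in the design, which animal gave it, or whether it holds 1 cell or many. A p-value here sets a difference against the variation among the libraries, part of which may be technical, and does not speak of animals or cultures. In libraries of many cells, fewer cells of a type and less RNA per cell cannot be told apart.

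Smad3 itself (ENSMUSG00000032402) was read first. Wild-type controls 1 to 5 held 0, 0.01, 0, 15.38 and 11.54 TPM, and each of the 4 treated wild-type libraries held 0. The knockout-labelled controls held 0, 0.27, 1.93, 0 and 0 TPM, and the treated libraries with that label held 6.18, 0.01 and 22.26. Under TGF-β1 the transcript thus went against the labels, with mean log2(TPM + 1) higher by 2.47 in the libraries labelled knockout (two-sided exact permutation p = 0.0286, the smallest possible here). In controls the difference was -1.16 (exact permutation p = 0.365), in the direction of the labels. Every difference between genotypes given for the factors rests on the labels alone.

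The libraries were read for macrophage markers and for those of other cells. The number of genes at TPM 1 or more was 7269 to 10307 per library; read depth cannot be had from TPM and is unknown. All 10 macrophage markers passed the filter, and Cd68, Lyz2, Csf1r, Cd14, Itgam and Adgre1 (F4/80) were above TPM 1 in all 17 libraries, while Mertk and Mrc1 reached it in 6 and 8. Of 9 neutrophil markers 8 were listed at 0 throughout, and the other, S100a8, reached at most 132 TPM. Summed TPM did not exceed 5.25 for 8 dendritic cell markers, 9.72 for 9 fibroblast markers and 1.97 for 8 lymphocyte markers. Among 9 mast and erythroid markers only Pf4 was tested, at a median of 169 TPM; of the other 8, Itga2b reached 25.69 TPM in 1 TGF-β1 library labelled knockout and Kit 11.01 TPM in 1 control with that label, and none of the rest reached TPM 1. In 6 libraries more than 10% of moderately expressed genes were listed at 0: wild-type controls 3, 4 and 5, wild-type TGF-β1 library 3, control 2 and TGF-β1 library 2 labelled knockout. The mean log2(TPM + 1) of 20 cell cycle genes was 7.39 to 7.94 with TGF-β1 and 3.46 to 7.36 in controls of wild type, and 7.44 to 7.98 and 4.89 to 7.24 in libraries labelled knockout; none of the 20 was called, and their part in the levels of the factors was not tested.

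Spi1 (ENSMUSG00000002111) encodes the ETS factor PU.1, without which macrophages do not form. Its TPM was 547, 536, 489.8, 809 and 544 in wild-type controls 1 to 5 and 385, 501, 651 and 887 in wild-type TGF-β1 libraries 1 to 4. The 5 knockout-labelled controls held 546, 418, 419.6, 657 and 562 TPM, and the 3 TGF-β1 libraries with that label 648, 944 and 498. All 4 groups overlapped, and the lowest library still held 385 TPM. Group means were 585 ± 127, 606 ± 217, 521 ± 102 and 697 ± 227 TPM (SD) in the order just given. Spi1 made up 36.1% to 84.9% of the summed TPM of the 9 factors in a library. Its spread within groups, 0.38 on the log2 scale, was smaller than that of nearly all tested genes (2.22% had a smaller one). Among the 1630 genes with a mean of at least 100 TPM, 12.9% had a smaller one.

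Cebpa (ENSMUSG00000034957) encodes C/EBPα, which commits progenitors to the myeloid path. Its TPM was 0, 9.94, 1.86, 0.06 and 15.54 in wild-type controls and 0.12, 8.4, 0 and 0.02 in wild-type TGF-β1 libraries. The knockout-labelled controls held 3.4, 19.19, 30.91, 3.94 and 30.2 TPM, and the treated libraries with that label 5.09, 0 and 8.23. Cebpa was above TPM 1 in 3 of 5 wild-type controls and 1 of 4 wild-type TGF-β1 libraries. With the knockout label this held for all 5 controls and 2 of 3 TGF-β1 libraries. Every pair of compared groups overlapped. Group means were 5.48 ± 6.96, 2.14 ± 4.18, 17.5 ± 13.5 and 4.44 ± 4.15 TPM. It was the factor with the most libraries at exactly 0 together with Klf4, 3 of 17 each.

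Runx1 (ENSMUSG00000022952), a runt-domain factor needed for the emergence of blood stem cells, acts in myeloid enhancers with its partner CBFβ. Its TPM was 36.58, 27.89, 0.71, 3.96 and 51.59 in wild-type controls and 0.51, 36.24, 34.27 and 39.69 in wild-type TGF-β1 libraries. Among libraries labelled knockout, controls held 8.6, 0.13, 17.72, 11.4 and 16.31 TPM and treated ones 24.66, 19.9 and 37.65. These last 2 groups did not overlap, the 1 such case in 36 (9 factors in 4 pairs of groups). Of all tested genes, 4.89% showed no overlap in this comparison, and 1.06% to 5.49% across the 4 pairs, so the case does not single out Runx1. Group means were 24.2 ± 21.7, 27.7 ± 18.3, 10.8 ± 7.02 and 27.4 ± 9.19 TPM. In wild type the 2 groups held both near-empty and high libraries and overlapped.

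Irf8 (ENSMUSG00000041515), an interferon regulatory factor that pairs with PU.1 and drives monocyte and dendritic cell fate, was the second most abundant factor. Its TPM was 216, 124, 185, 279 and 174 in wild-type controls and 627, 265, 36.95 and 254 in wild-type TGF-β1 libraries. With the knockout label, it was 138, 308, 187, 75.74 and 239 TPM in controls and 118, 246 and 288 with TGF-β1. The highest and the lowest library both lay in the wild-type TGF-β1 group, and all groups overlapped. Group means were 196 ± 57.1, 296 ± 245, 189.5 ± 89.7 and 217.5 ± 88.6 TPM. Although Irf8 was never near 0, its spread within groups was 0.99 on the log2 scale, and 83.5% of the 1630 genes with a mean of at least 100 TPM had a smaller one.

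Cebpb (ENSMUSG00000056501) encodes C/EBPβ, which serves inflammatory and alternative activation of macrophages. Its TPM was 13.16, 0.04, 3.28, 6.77 and 0 in wild-type controls and 4.41, 0.61, 2.58 and 4.42 in wild-type TGF-β1 libraries. The knockout-labelled controls held 0.07, 4.08, 0.23, 6.9 and 1 TPM, and the treated libraries with that label 7.41, 3.72 and 2.24. Cebpb had the lowest median of the set, and its groups overlapped. Group means were 4.65 ± 5.52, 3.01 ± 1.82, 2.46 ± 2.97 and 4.46 ± 2.66 TPM.

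Klf4 (ENSMUSG00000003032), a zinc-finger factor of monocyte differentiation, was the factor most often under TPM 1, in 7 of 17 libraries. Its TPM was 16.33, 5.45, 10.92, 0.03 and 22.14 in wild-type controls and 0.02, 5.23, 3.82 and 3.86 in wild-type TGF-β1 libraries. Among libraries labelled knockout, controls held 0, 0, 8.64, 0.03 and 0.02 TPM and treated ones 3.47, 0 and 23.53. It was above TPM 1 in 4 of 5 wild-type controls and in 1 of 5 controls labelled knockout, and all compared groups overlapped. Group means were 11.0 ± 8.71, 3.23 ± 2.24, 1.74 ± 3.86 and 9.0 ± 12.7 TPM.

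Maf (ENSMUSG00000055435), also called c-Maf, limits self-renewal and supports tissue-macrophage programmes. Its TPM was 70.19, 0.79, 0.06, 0.09 and 5.46 in wild-type controls and 9.39, 1.53, 17.35 and 2.51 in wild-type TGF-β1 libraries. With the knockout label, it was 0.4, 35.38, 8.17, 5.87 and 22.6 TPM in controls and 32.69, 15.05 and 19.57 with TGF-β1. Only 2 of 5 wild-type controls were at TPM 1 or more, yet 1 of them was the highest of all 17, and the groups overlapped. Group means were 15.3 ± 30.8, 7.70 ± 7.33, 14.5 ± 14.3 and 22.4 ± 9.16 TPM.

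Mef2c (ENSMUSG00000005583), a MADS-box factor of muscle, neurons and microglia that also takes part in myeloid fate choice, came after Spi1 and Irf8 by median. Its TPM was 101, 0.62, 14.88, 5.3 and 29.28 in wild-type controls and 36.16, 25.38, 101 and 52.66 in wild-type TGF-β1 libraries. The knockout-labelled controls held 19.87, 50.35, 73.23, 7.66 and 48.97 TPM, and the treated libraries with that label 59.1, 15.19 and 93.85. All 4 wild-type TGF-β1 libraries were above 25 TPM, against 2 of 5 wild-type controls, and the highest of all 17 was wild-type control 1. Group means were 30.3 ± 41.2, 53.8 ± 33.4, 40.0 ± 26.2 and 56.1 ± 39.4 TPM.

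Mitf (ENSMUSG00000035158), a basic helix-loop-helix factor of melanocytes and osteoclasts, shares lysosomal targets with TFEB and TFE3. Its TPM was 29.47, 24.08, 21.56, 0.01 and 18.38 in wild-type controls and 2.58, 5.87, 28.78 and 0 in wild-type TGF-β1 libraries. Among libraries labelled knockout, controls held 21, 0, 1.67, 5.46 and 54.26 TPM and treated ones 28.22, 38.92 and 28.78. With TGF-β1, 3 of 4 wild-type libraries lay under 6 TPM and all 3 libraries labelled knockout above 28 TPM, but the remaining wild-type value of 28.78 equalled one of these. Group means were 18.7 ± 11.2, 9.31 ± 13.2, 16.5 ± 22.7 and 32.0 ± 6.02 TPM.

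**Figure D1:**
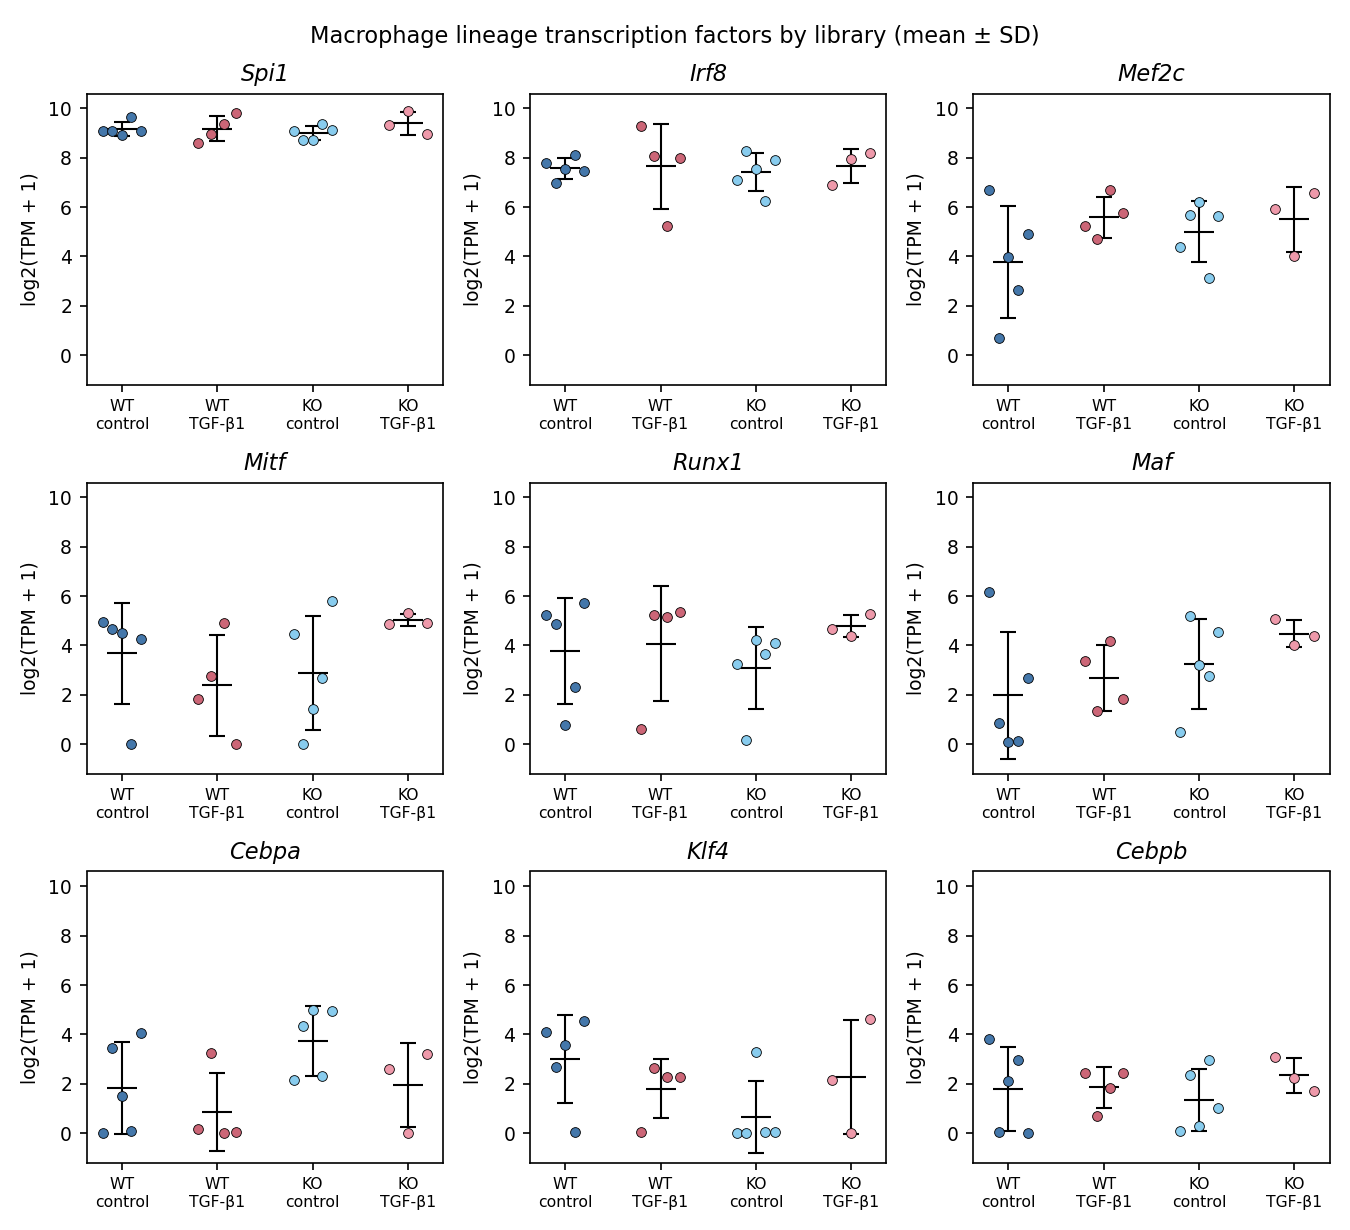
Level of each of the 9 factors, as log2(TPM + 1) on a common axis, in the 4 groups (WT wild type, KO labelled knockout). Each point is 1 library, the horizontal line is the mean and the bars are ± 1 SD; Spi1 and Irf8 stay high in every library, while the other 7 each have libraries at or near 0.

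By median over the 17 libraries the order was Spi1 (546 TPM), Irf8 (216), Mef2c (36.2), Mitf (21.0), Runx1 (19.9), Maf (8.17), Cebpa (3.94), Klf4 (3.82) and Cebpb (3.28). Spi1 exceeded Irf8 in 16 of 17 libraries, and Irf8 exceeded Mef2c in 16. Below these the order was loose: Mef2c was above Mitf in 12 libraries, Mitf above Runx1 in 6, Runx1 above Maf in 12, Maf above Cebpa in 10, Cebpa above Klf4 in 10 and Klf4 above Cebpb in 8. The ranges of all neighbours in this order overlapped. The range of Spi1 lay above those of the 7 genes from Mef2c down, and that of Irf8 above those of Cebpa, Klf4 and Cebpb.

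Of the 153 values of the 9 genes, 29 were under TPM 1, spread over 15 of the 17 libraries. Only 2 libraries held all 9 factors at TPM 1 or more, 7 held 8, 3 held 7, 4 held 6 and 1 held 5. A value under TPM 1 was found in 7 libraries for Klf4, 6 for Cebpa, 5 for Cebpb, 4 for Maf, 3 each for Mitf and Runx1 and 1 for Mef2c. Within-group spread on the log2 scale was 1.98 for Mitf, 1.88 for Runx1 and 1.87 for Maf, with 80.8%, 75.6% and 75.1% of tested genes less variable. The corresponding values were 1.67 for Klf4, 1.65 for Cebpa, 1.58 for Mef2c and 1.28 for Cebpb.

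**Figure D2:**
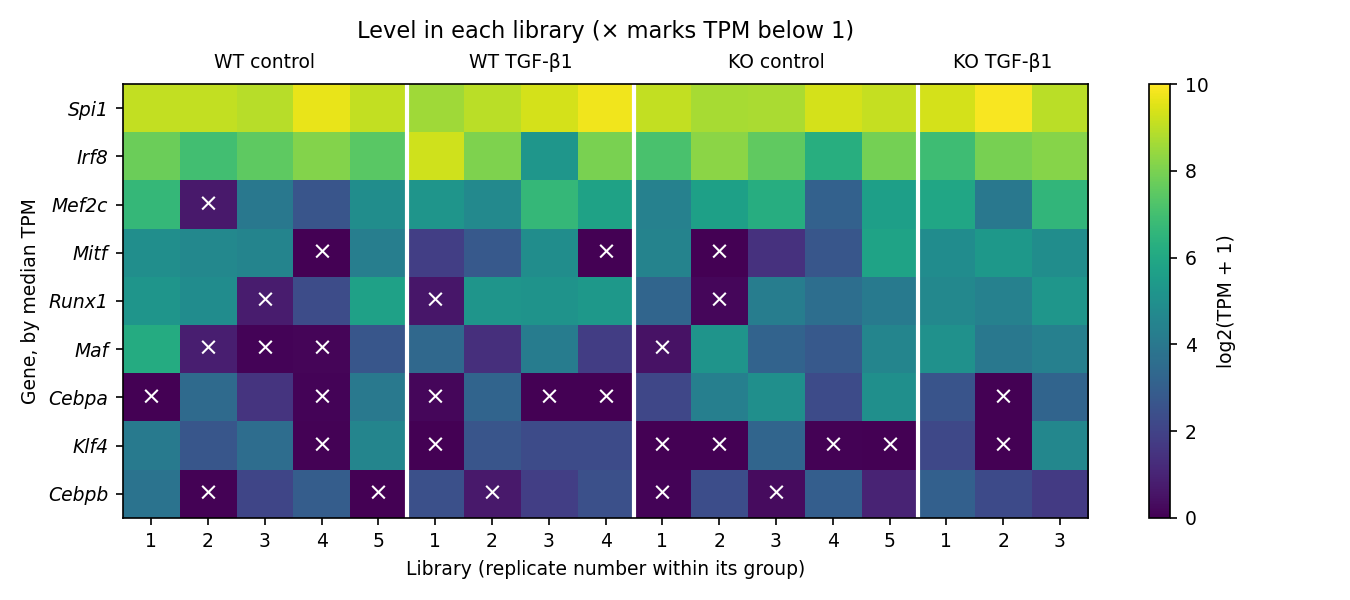
Heat map of log2(TPM + 1) for the 9 factors, ordered by median TPM (rows), in the 17 libraries by group and replicate number (columns; WT wild type, KO labelled knockout). A cross marks each of the 29 values under TPM 1. Crosses occur in every group, but among TGF-β1 libraries labelled knockout only in library 2, and the rows of Spi1 and Irf8 have none.

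The first comparison asked whether TGF-β1 changed the factors in wild-type macrophages. Differences are of mean log2(TPM + 1), a scale that understates changes of low genes, tested with limma over the 12158 genes that reached TPM 1 in 3 or more libraries; calls required a limma p under 0.05 after Benjamini-Hochberg adjustment. No factor was called, and none had an unadjusted p under 0.05, against 0.181% of all genes called (22) and 1212 with an unadjusted p under 0.05. Spi1 differed by 0.01 ± 0.27 (SE; 95% interval -0.56 to 0.58; limma adjusted p = 1) and Irf8 by 0.08 ± 0.60 (-1.17 to 1.32; adjusted p = 0.991), each within the spread of its libraries. Mef2c had the largest difference, 1.80 ± 0.98 (-0.25 to 3.85; unadjusted p = 0.0822, adjusted p = 0.577). It stayed positive in all 20 alternative fits, between 1.03 and 2.52. Mitf, Klf4 and Cebpa were lower by point estimate, at -1.29 ± 1.28, -1.19 ± 1.13 and -0.96 ± 1.14, and Maf, Runx1 and Cebpb differed by 0.70 ± 1.25, 0.30 ± 1.20 and 0.06 ± 0.95. Without the 6 libraries with many genes at 0, which left only wild-type controls 1 and 2, Maf and Runx1 were at -1.32 each. The sign of Spi1, Irf8, Cebpb and Runx1 turned under other scalings. None of the 9 separated TGF-β1 from control libraries without overlap, where 2.79% of all genes did. The median absolute difference was 0.70 over the 9 factors and 0.70 over all genes tested.

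In libraries labelled knockout, TGF-β1 again gave no called factor and none at an unadjusted p under 0.05 by limma, against 0.00823% of all genes called (1) and 721 with an unadjusted p under 0.05. Of the 9 differences 8 were positive, against 53.1% of all genes, and the median was 0.99 over the factors and 0.07 over all genes. Mitf had the largest, 2.16 ± 1.39 (-0.75 to 5.06; adjusted p = 0.883). Runx1, the factor whose groups did not overlap, differed by 1.70 ± 1.31 (-1.03 to 4.42; adjusted p = 0.924), and 4.89% of all genes showed no overlap in this comparison. Cebpa, the exception in direction, differed by -1.81 ± 1.25 (adjusted p = 0.889). Klf4 differed by 1.59 ± 1.23, Maf by 1.24 ± 1.36, Cebpb by 0.99 ± 1.03, Mef2c by 0.49 ± 1.07, Spi1 by 0.39 ± 0.30 and Irf8 by 0.25 ± 0.65. These comparisons have 3 TGF-β1 libraries, and all 9 intervals included 0. TGF-β1 libraries 1 and 3 with this label were the only ones in the series with all 9 factors at TPM 1 or more. That count is read from the same values as the differences and adds nothing to them. With each library's number of genes at TPM 1 or more as a covariate, all 9 differences kept their sign and no factor was called.

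Whether the effect of TGF-β1 differed between the genotype labels was tested as the difference of these effects. No factor was called, and limma called 0% of all genes, with 569 at an unadjusted p under 0.05 and none of the 9 factors among them. Mitf had the largest value, 3.45 ± 1.89 (-0.49 to 7.39; unadjusted p = 0.0828, adjusted p = 0.997), its point estimates being -1.29 in wild type and 2.16 in libraries labelled knockout. Klf4 followed with 2.78 ± 1.66 (-0.69 to 6.25; adjusted p = 0.997), from -1.19 and 1.59. Runx1 and Mef2c gave 1.40 ± 1.77 and -1.31 ± 1.45. The values of Mitf and Klf4 stayed positive in all 27 alternative fits, between 1.67 and 4.57 for Mitf and between 1.11 and 4.40 for Klf4. Spi1 gave 0.39 ± 0.40 and Irf8 0.17 ± 0.88, and every interval included 0.

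Between genotype labels in controls, no factor was called while limma called 0.148% of all genes (18). Klf4 alone had an unadjusted p under 0.05, where 708 genes did: it was lower in controls labelled knockout by a log2 difference of -2.32 ± 1.06 (-4.54 to -0.11; unadjusted p = 0.0406, adjusted p = 0.828). The difference stayed negative in all 21 alternative fits, from -4.21 to -0.77. Cebpa was higher by point estimate, 1.93 ± 1.08 (-0.32 to 4.18; adjusted p = 0.893), and so were Mef2c, 1.22 ± 0.93, and Maf, 1.26 ± 1.18. Maf was at -0.74 without the 6 libraries with many genes at 0, a fit that kept only wild-type controls 1 and 2. In the main fit, Mitf, Runx1, Cebpb, Spi1 and Irf8 differed by -0.80, -0.69, -0.44, -0.17 and -0.15. No factor separated the 2 control groups without overlap, where 1.06% of all genes did.

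With TGF-β1, no factor was called between genotype labels and none had an unadjusted p under 0.05, while limma called 0.156% of all genes (19) and 638 had an unadjusted p under 0.05. Mitf was again the largest, 2.65 ± 1.46 higher in libraries labelled knockout (-0.39 to 5.69; unadjusted p = 0.0837, adjusted p = 0.989). Maf and Cebpa differed by 1.80 ± 1.42 and 1.08 ± 1.30, and the other 6 by between -0.09 (Mef2c) and 0.70 (Runx1). None of the 9 had groups without overlap, against 5.49% of all genes. The comparisons share libraries, so the Mitf and Klf4 values in them are not independent of each other.

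**Figure D3:**
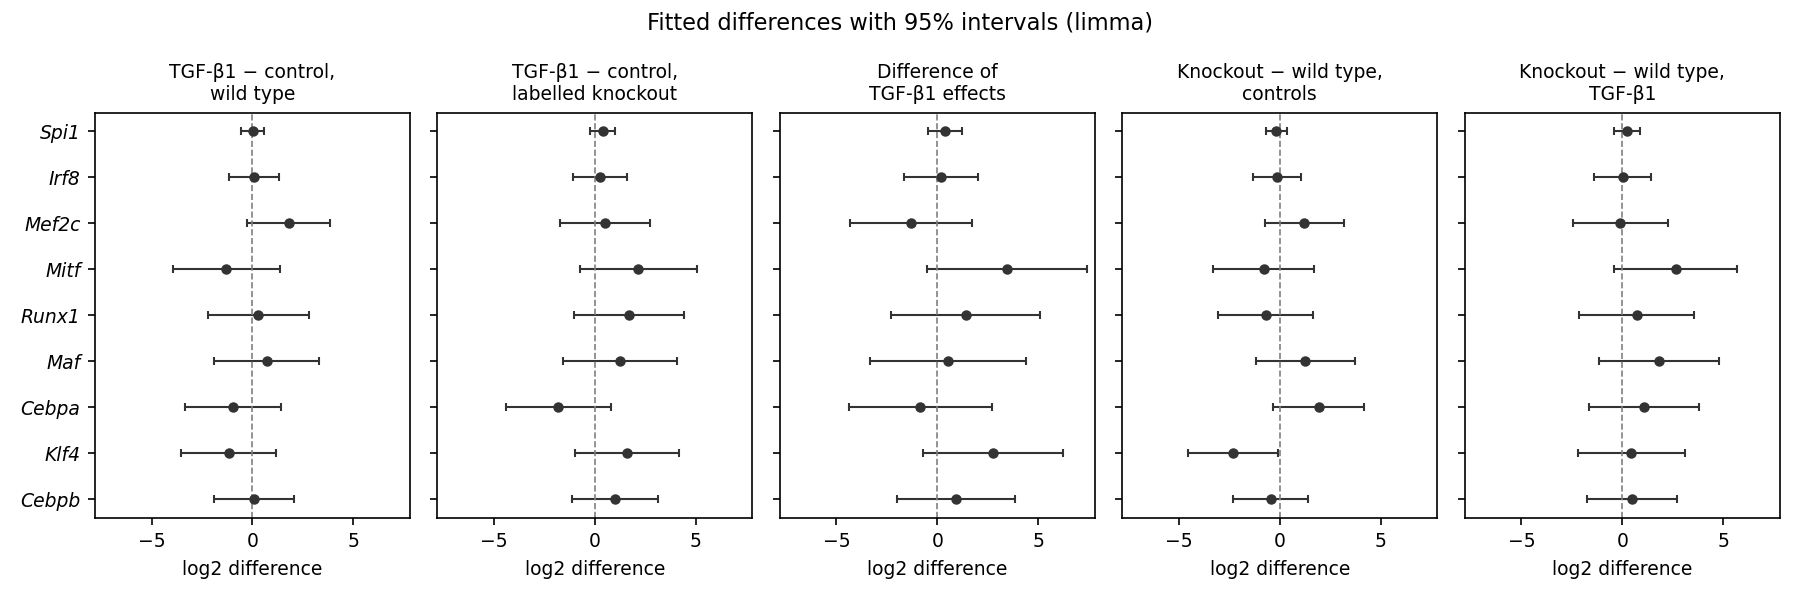
Fitted log2 differences of the 9 factors (points) with 95% intervals (bars) from limma in the 5 comparisons, on a common axis with 0 dashed. All intervals include 0 except that of Klf4 between controls, which ends at -0.11 and whose adjusted p was 0.828; the intervals of Spi1 are the narrowest.

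The promoters of Mef2c, Mitf and Klf4 are shown because these genes had the largest differences in the comparisons; for each, the window with the most matches to a fixed set of motifs was taken. Sequences are the 250 bases before a RefSeq transcript start (GRCm38.p6), 5′ to 3′ on the gene's strand. The Mef2c window lies at chr13:83503784-83504033 (+), that of Mitf at chr6:97929567-97929816 (+) and that of Klf4 at chr4:55532476-55532725 (-). Capitals mark a match, on either strand, to the PU.1 letters GAGGAA or the IRF letters AANNGAAA or the RUNX letters TGTGGT or the MITF E-box CACGTG or the palindromic C/EBP site TTGCGCAA or the SMAD letters GTCTAGAC and CAGACA.
Mef2c: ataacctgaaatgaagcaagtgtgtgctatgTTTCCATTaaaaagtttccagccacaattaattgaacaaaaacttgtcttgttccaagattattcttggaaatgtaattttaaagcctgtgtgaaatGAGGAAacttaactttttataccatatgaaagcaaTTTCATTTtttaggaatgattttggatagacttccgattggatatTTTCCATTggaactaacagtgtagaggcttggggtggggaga
Mitf: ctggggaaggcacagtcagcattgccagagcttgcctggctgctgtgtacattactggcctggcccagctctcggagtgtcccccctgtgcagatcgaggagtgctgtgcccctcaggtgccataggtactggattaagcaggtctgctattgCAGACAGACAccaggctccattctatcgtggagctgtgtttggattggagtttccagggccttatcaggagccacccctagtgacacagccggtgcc
Klf4: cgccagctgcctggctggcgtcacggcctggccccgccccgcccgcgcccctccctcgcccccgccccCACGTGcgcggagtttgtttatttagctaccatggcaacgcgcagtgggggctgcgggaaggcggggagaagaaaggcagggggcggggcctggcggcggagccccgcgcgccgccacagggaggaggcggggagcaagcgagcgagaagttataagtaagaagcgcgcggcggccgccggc
The Mef2c window held 1 PU.1 match at bases -122 to -117 from the start and 3 IRF matches beginning at -219, -87 and -42. The Mitf window held 2 overlapping CAGACA matches, at -97 to -92 and -93 to -88, and the Klf4 window 1 E-box at -182 to -177. Over 32851 promoter windows of that length, GAGGAA was found in 23.3%, AANNGAAA in 21.3%, CAGACA in 17.1%, TGTGGT in 14%, CACGTG in 6.02%, GTCTAGAC in 0.167% and TTGCGCAA in 0.164%. Windows were found for 7 of the 9 factors, 13 in all, and of these 3 held GAGGAA, 2 AANNGAAA, 2 CACGTG, 1 TGTGGT and 1 CAGACA. The KLF letters CACCC and the shorter C/EBP letters TTGCG, found in 52% and 14.5% of all windows and in 6 and 2 of the 13, were also searched and are not in capitals. A match is a description of letters and shows no binding.

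Among the factors themselves, levels moved together in only some pairs. Over the 17 libraries, 36 pairs were compared as a description; the points share libraries and the 4 groups. Maf and Mef2c were the most alike (Pearson r = 0.684, Spearman rho = 0.730; r = 0.678 for deviations from group means), followed by Runx1 and Klf4 (r = 0.515, rho = 0.651). The paralogues Cebpa and Cebpb were the least alike (r = -0.617, rho = -0.553; r = -0.652 for deviations from group means). Spi1 and Cebpa had r = -0.530 and rho = -0.538. Values at or near 0 in some libraries enter all of these coefficients except that of a pair made of Spi1 and Irf8.

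Over all tested genes with a symbol, the 2 most alike each factor by Pearson r over the 17 libraries were Ccar2 (0.803) and Synj2 (0.780) for Spi1, and Apip (0.839) and Thyn1 (0.778) for Irf8. For Mef2c they were Nfatc2 (0.800) and Macf1 (0.765), and for Mitf Lrrc8c (0.849) and Rce1 (0.823). C1qtnf12 (0.841) and Lrch1 (0.826) were nearest to Runx1, and Ptpra (0.805) and Mrpl44 (0.773) to Maf. For Cebpa they were Nkiras1 (0.818) and Acss3 (0.795), for Klf4 Furin (0.788) and Gm12879 (0.784), and for Cebpb Gm22854 (0.728) and Cops3 (0.724). None of these 18 genes is a factor of the set; they are the top of 11438 genes and are given as a description.

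Some paralogues had higher median levels than the factors they resemble, on the length-corrected TPM scale. Of 31 paralogues 26 passed the filter, and Irf5 (median 225 TPM), Klf6 (175), Tfe3 (54.6), Irf3 (47.7) and Klf13 (16.8) were among those at TPM 1 or more in all 17 libraries. Of these, Irf3 lay below Irf8 (216 TPM), and Irf5 was close to it. Klf6 never fell below 99.05 TPM, while Klf4 was under TPM 1 in 7 libraries. Mafa, Mef2b and Klf5 were listed at 0 in every library, and Spib, the ETS factor nearest to PU.1, did not exceed 0.27 TPM. No paralogue was called in any comparison. In wild type with TGF-β1, 12 of the 26 were positive and 14 negative, with a median of -0.05 against 0.09 over all genes. Mafg, a small MAF protein that dimerises with larger factors, had the largest difference, from 40.0 ± 21.5 to 0.835 ± 1.30 TPM (log2 -4.48 ± 0.98, limma adjusted p = 0.0682). Runx3 differed by 2.84 ± 1.28 in wild type and 2.64 ± 1.39 in libraries labelled knockout (adjusted p = 0.472 and 0.854). Cebpd, an acute-phase C/EBP, went from 15.2 ± 13.6 to 75.6 ± 59.5 TPM in wild type (2.48 ± 1.36, adjusted p = 0.578). In libraries labelled knockout 15 of 26 were positive (median 0.14), with Runx2 at 2.30 ± 1.20. Klf2 was higher in knockout-labelled than in wild-type controls by 2.31 ± 0.98 (adjusted p = 0.790).

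Partners and antagonists gave no call either. Of 20, 13 passed the filter, and 11 of the 13 were positive in wild type with TGF-β1 (median 0.72, all genes 0.09) and 7 in libraries labelled knockout (median 0.35). Id1, an inhibitor of helix-loop-helix factors and a classical target of BMP signalling, went from 156.5 ± 189 to 635 ± 398 TPM in wild type (3.46 ± 1.44, adjusted p = 0.439). Hdac9, a class IIa deacetylase that binds MEF2 proteins, differed by 2.28 ± 1.26, and Ddit3 (CHOP), a C/EBP that blocks its relatives, by 2.49 ± 1.50. Trib1 and Trib3 encode pseudokinases of the Tribbles family, of which TRIB1 sends C/EBPα for degradation; in libraries labelled knockout they differed by 2.05 ± 1.22 and -3.10 ± 1.55. Cbfb, the RUNX partner, was at TPM 1 or more in 16 libraries, with a median of 18.5 TPM. Gfi1 and Gata2, which oppose PU.1 or C/EBP in other lineages, were listed at 0 throughout.

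Of 26 other macrophage factors 22 passed, with 13 positive in wild type (median 0.25) and 10 in libraries labelled knockout (median -0.11), and none was called. Egr1, an immediate-early factor of monocyte differentiation, went from 0.008 ± 0.011 to 23.2 ± 24.1 TPM in wild type (3.56 ± 0.98, adjusted p = 0.157). Myc differed by -2.23 ± 1.02 and Nr4a1 by 2.12 ± 0.90 there. Nr1h3, the liver X receptor α, differed by -3.76 ± 1.34 in libraries labelled knockout (27.9 ± 20.0 to 1.49 ± 2.58 TPM, adjusted p = 0.709). Sall3, Gata6 and Mycl were listed at 0 in every library.

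Listed target genes of the factors were read in the same fit. The lists do not separate genes that a factor raises from genes that it lowers. Of 18 targets of PU.1 and C/EBP 12 passed, with 7 positive in wild type (median 0.47, all genes 0.09) and 9 in libraries labelled knockout (median 0.62, all genes 0.07), and none was called. Csf1r, the M-CSF receptor and a textbook PU.1 target, went from 367 ± 188 to 855 ± 273 TPM in wild type (1.32 ± 0.36, adjusted p = 0.157) and from 340.5 ± 119 to 842 ± 245 TPM in libraries labelled knockout (1.32 ± 0.39, adjusted p = 0.527). Both differences were larger than the 0.01 and 0.39 of Spi1 itself, but the contrast between the genes was not tested. Fcgr3, an Fc receptor, differed by 1.30 ± 0.38 and Csf2ra by 2.36 ± 1.01 in wild type. Lcn2, Il6, Il1b, Chil3 and Plac8, several of them C/EBP-driven genes of activated or granulocytic cells, were listed at 0 in every library.

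Of 10 targets of MAF 6 passed, and none was called. In wild type 3 were positive and 3 negative with TGF-β1 (median 0.04, all genes 0.09), and in libraries labelled knockout 5 were positive and 1 negative (median 1.72, all genes 0.07). The complement genes C1qa and C1qc, which MAF supports, differed by 3.54 ± 1.56 and 3.80 ± 1.04 in wild type (limma adjusted p = 0.462 and 0.157) and by 6.61 ± 1.70 and 3.30 ± 1.13 in libraries labelled knockout (adjusted p = 0.363 and 0.688). The third C1q chain, C1qb, differed by -0.38 ± 1.85 in wild type and 2.52 ± 2.01 in libraries labelled knockout, and Mrc1, the mannose receptor, by -1.72 ± 1.15 and -0.74 ± 1.25. C1qa went from 15.4 ± 21.4 to 743 ± 629 TPM in libraries labelled knockout. C1qb was higher with TGF-β1 in libraries labelled knockout than in wild type, by 5.96 ± 2.10 (adjusted p = 0.739). The 6 tested targets were positive in that comparison (median 1.32, all genes 0.06), and between controls 4 were positive and 2 negative (median 0.31, all genes 0.11). Il10 and Timd4 were listed at 0 throughout.

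Of 12 targets of IRF8 5 passed, and only Cst3 was called, in wild type, where 0.181% of all genes were. With TGF-β1, 4 were positive and 1 negative in wild type (median 1.15), and 3 positive and 2 negative in libraries labelled knockout (median 0.35). Cst3 (cystatin C) rose from 1386 ± 373 to 3127 ± 997 TPM (1.16 ± 0.23, limma adjusted p = 0.0446), while Irf8 differed by 0.08. Whether this call held in the alternative fits was not examined. In libraries labelled knockout, where it was not called, Cst3 went from 1740 ± 287 to 2885 ± 735 TPM. Cx3cr1, the fractalkine receptor, differed by 2.74 ± 1.10 in wild type and 3.45 ± 1.20 in libraries labelled knockout (adjusted p = 0.421 and 0.699). Cd74, the invariant chain of MHC class II, was at TPM 1 or more in 4 libraries and differed by -1.23 ± 1.61 and -1.23 ± 1.75, and Ctss, the protease cathepsin S, by 0.24 ± 0.30 and -0.06 ± 0.33. Il12b and Ifnb1 were listed at 0 in every library.

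Of 14 targets of MITF and its relatives 12 passed, and Ctsd alone was called. Ctsd, the lysosomal protease cathepsin D, rose in wild type (1.98 ± 0.30, limma adjusted p = 0.00371) and was lower in TGF-β1 libraries labelled knockout than in wild-type ones (-1.91 ± 0.34, adjusted p = 0.0152), where Mitf differed by 2.65 in the other direction without passing the test. The difference of the Ctsd effects was -2.38 ± 0.44 (adjusted p = 0.300). Gpnmb, a glycoprotein gene driven by MITF, differed by -2.58 ± 0.69 in libraries labelled knockout (adjusted p = 0.438), and Atp6v1h, a subunit of the lysosomal proton pump, by -1.48 ± 0.46 in wild type (adjusted p = 0.246). With TGF-β1, 7 of the 12 were positive in wild type (median 0.17) and 5 in libraries labelled knockout (median -0.21). Oscar was listed at 0 throughout.

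**Figure D4:**
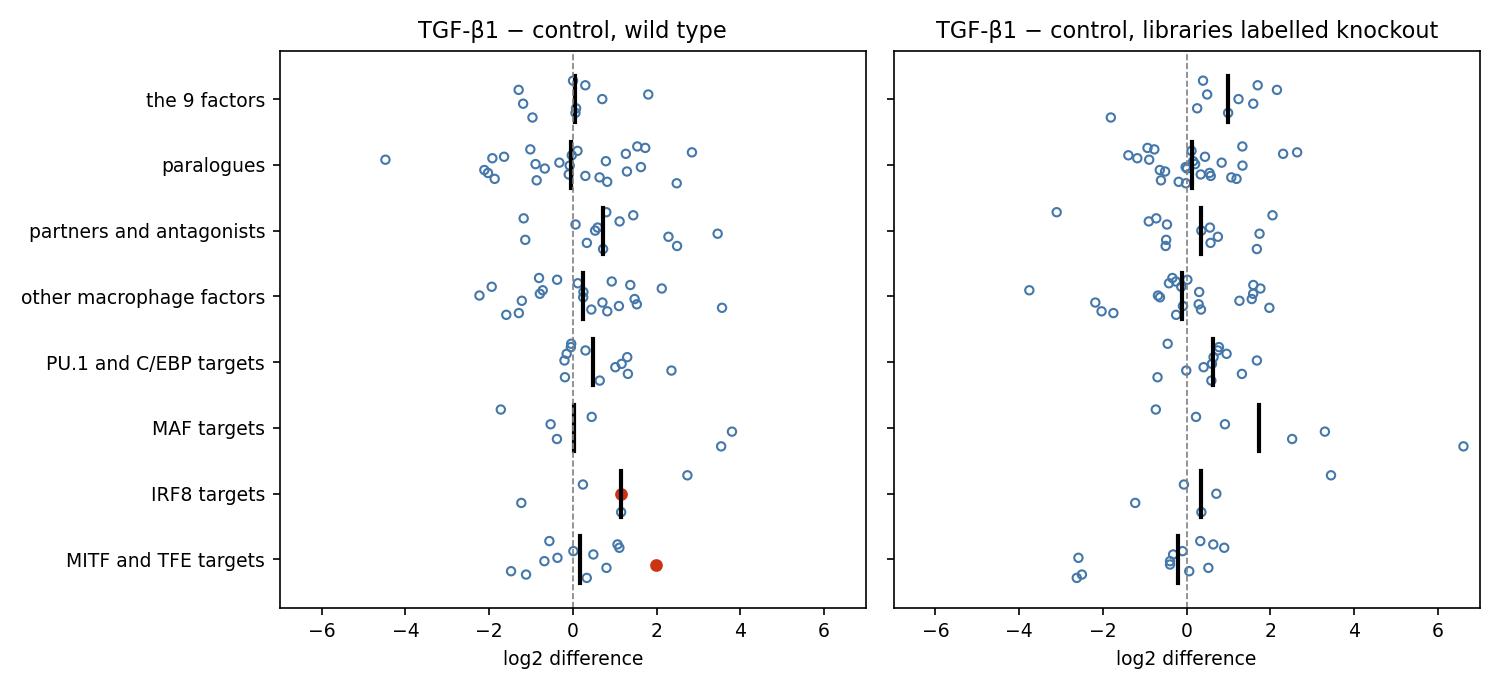
Log2 difference, TGF-β1 minus control, of the 9 factors, their paralogues, partners and antagonists, other macrophage factors and target genes, in wild type (left) and in libraries labelled knockout (right). Each circle is 1 tested gene, the vertical black line is the median of the list, and filled red circles were called by limma; only Cst3 and Ctsd, both in wild type, are filled.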

How the data were processed

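The deposited table gives TPM for 17 libraries, made by the authors with RSEM on mouse build mm9 after FastQC and Trim Galore, per the submitters' processing notes with no version recorded. Its rows carry gene IDs only; 32897 of 37620 were given a symbol from GENCODE vM21, and the other 4723 stayed in the tests. Groups came from the sample titles. No column of sample values was left unused.

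Values were taken as log2(TPM + 1). The 12158 genes that reached TPM 1 in 3 or more libraries were fitted over all 4 groups with limma 3.58.1 in R 4.3.3 (lmFit, eBayes with trend), without covariates, and p-values were adjusted over all of them by the Benjamini-Hochberg method. The steps were tested on simulated data. A gene was called at an adjusted p under 0.05. Smad3 was compared by an exact permutation test of the difference of means. The 9 factors and the gene lists were chosen with earlier results of these data known. Cst3 and Ctsd were already known to be called, so their calls are no independent evidence about the lists. The rule for other named genes took, per list, each called gene and up to 3 tested genes with the largest difference in wild type and up to 2 in each other comparison, and the 2 genes most correlated with each factor; paralogues and markers are also named by level. Alternatives changed the pseudocount, the filter, scaling, covariates, weights, the block and the libraries used. Promoter windows came from RefSeq tables of GRCm38.p6, another build than the submitters', and were searched for fixed letters on both strands. A median share of 8.78% of moderately expressed genes (10 to 50 TPM) was listed at 0 in a library, and none of 25 housekeeping genes was at 0 anywhere. All of these 25 but Tbp had means above those of the lower factors, so they do not speak for detection at low levels. Means ± SD are given as a description, and for factors with values near 0 they can rest on single libraries. For the 9 factors the value of every library is given as well.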

Additional observations from a re-analysis of the deposited data

Results flagged for a closer look

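In 7 of the 27 groups of 4 or 5 values examined, a library stood apart from the rest of its group by a gap large against the group's whole range. Chance alone would single out about 1 in 20 groups, and patchy low values do not follow the distribution behind that figure. Spi1 was 808.8 TPM in wild-type control 4, where the other 4 controls held 489.8 to 546.9. Mitf was 0.01 TPM in that same library and 18.38 to 29.47 in the others. Runx1 was 0.51 TPM in wild-type TGF-β1 library 1 (others 34.27 to 39.69), and Klf4 was 0.02 TPM in the same library (others 3.82 to 5.23). Cebpa was 8.4 TPM in wild-type TGF-β1 library 2 (others 0 to 0.12). Runx1 was 0.13 TPM in control 2 labelled knockout (others 8.6 to 17.72). Klf4 was 8.64 TPM in control 3 labelled knockout (others 0 to 0.03). Wild-type control 4 and knockout-labelled control 2 are among the 6 libraries with more than 10% of moderately expressed genes at 0; the part of this in the values was not tested.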

How the results depend on the processing

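No factor was called under any alternative. Calls of other genes, Cst3 and Ctsd included, were only counted there and not followed by name. Of 945 alternative values of the 45 factor differences, 62 had the opposite sign, 0 passed the threshold, and 26 of the 45 kept their sign throughout.

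In wild type, signs turned for Maf (-0.019 with pseudocount 10), Cebpb (-0.11 with pseudocount 10, -0.27 by quantile normalization, -0.20 with a replicate block), Spi1 (-0.076 by upper-quartile scaling, -0.066 by quantile normalization), Irf8 (-0.0029 and -0.0018 by those) and Runx1 (-0.071 by quantile normalization, -0.30 with detected genes as a covariate). The Maf difference of effects was -0.12 with pseudocount 0.1. Irf8 between controls was 0.11 with the covariate; Irf8 and Mef2c between TGF-β1 groups were -0.28 and 0.30 with array weights, Irf8 -0.013 with pseudocount 10 and Mef2c 0.013 with the covariate. Dropping the 6 libraries with many genes at 0 kept only controls 1 and 2 of wild type. Without the 6, Maf, Cebpb and Runx1 in wild type were -1.32, -0.087 and -1.32, the Irf8 difference of effects -0.76, Maf between controls -0.74, and Irf8 and Mef2c between TGF-β1 groups -0.91 and 1.01.

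Leaving out 1 library at a time gave, in wild type, -0.20 to 0.20 for Spi1, -0.38 to 0.57 for Cebpb, -0.47 to 0.88 for Irf8 and -0.45 to 1.46 for Runx1. In libraries labelled knockout it gave -0.038 to 0.64 for Irf8 and -0.044 to 1.23 for Mef2c. For the difference of effects it gave -0.51 to 1.04 for Maf, -1.48 to 0.12 for Cebpa and -0.63 to 0.72 for Irf8. Between controls it gave -0.89 to 0.067 for Cebpb, -0.36 to 0.14 for Irf8 and -1.45 to 0.032 for Runx1. Between TGF-β1 groups it gave -0.024 to 0.44 for Spi1, -0.77 to 0.58 for Irf8, -0.46 to 1.13 for Runx1, -0.63 to 0.65 for Mef2c and -0.72 to 1.58 for Klf4.

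Of all genes, wild type called 22: 6 with no filter, 5 with only the compared groups, 11 with the replicate block, 3 without the 6 libraries, and 14 to 34 leaving out 1 library. Libraries labelled knockout called 1: 0 with pseudocount 0.1, the filter at TPM 5, the covariate, the compared groups, the block or without the 6 libraries, 4 with pseudocount 10, 5 with no filter, 6 by quantile normalization, 8 with array weights and 0 to 10 leaving out 1. The difference of effects called 1 with no filter and 0 to 1 leaving out 1. Controls called 18, and 6 without the 6 libraries. TGF-β1 groups called 19: 3 with the compared groups, 10 with the block, 7 without the 6 libraries and 12 to 20 leaving out 1. Same-numbered libraries did not deviate together (r of -0.076 to 0.020). The labels do not say whether a shared number means a shared animal or culture, and these values cannot settle it. Quantile normalization moved the median of all genes from 0.09 to -0.06 in wild type, from 0.07 to -0.06 in libraries labelled knockout and from 0.11 to 0.00 between controls; upper-quartile scaling moved the second from 0.07 to -0.03. The causes were not tested. Groups of 3 to 5 libraries of unknown depth limit all of these values.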
